A study of Mus musculus with 8 samples.

Results

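Among 8 regulators of quiescence in haematopoietic stem cells (HSCs), 7 could be tested, and Gfi1 was the only one that changed with age by exon reads. It was 2.15-fold higher at postnatal day 5 (P5) than at 4 weeks. The 8 genes are the FOXO transcription factors Foxo1, Foxo3 and Foxo4, the FOXO-responsive genes Txnip, Btg1 and Ccng2, the repressor Gfi1 and the Krüppel-like factor Klf15. They were taken by name from the deposited gene tables, where all 8 of them were found among 22050 genes with an mRNA model. RNA sequencing was done on 8 libraries of marrow HSCs of the inbred mouse strain C57BL/6, of which 4 came from P5 pups and 4 from animals aged 4 weeks. Cells were sorted as CD150 and EPCR positive and CD48 and lineage negative, and the protocol names 100 cells for each library. The labels give no treatment or engineered allele for either age, and they do not say whether libraries of an age came from separate mice. The p-values below therefore rest on the spread among these 8 samples only, and that spread may be technical. HSCs cultured for 1 day, which the series text mentions, were not analysed here.

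FOXO factors act in the nucleus when growth factor signalling through PI3K and AKT is low. AKT phosphorylates them and so keeps them in the cytoplasm, which means that their activity is set largely after transcription. In mouse HSCs they are known for holding cells out of the cell cycle and for defence against oxidative stress, and Gfi1 is known for restraining HSC proliferation.

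Exon reads numbered 6142760 to 7470777 in the P5 libraries and 5775130 to 7212446 in the 4-week libraries. Reads in introns took 60.1% of gene reads in P5 replicate 1 and 66.8% to 68.7% in the other libraries, so that library stood apart in this measure. Y-linked reads were at 2 and 0 in P5 replicates 1 and 3 and between 1532 and 2293 in the other 6 libraries, so part of the P5 group differed from the 4-week group in sex. Of 12235 genes tested, 16.5% differed between the ages at an adjusted p under 0.05 (quasi-likelihood test of edgeR with Benjamini-Hochberg adjustment), 7.99% higher and 8.55% lower at P5. Of 12 genes in the HSC marker list 11 were tested, and Mecom and Fgd5 were higher and Ly6a lower at P5. The summed level of the list was 4954 to 5443 CPM (exon reads scaled to library size, as edgeR's CPM) at P5 and 4529 to 5114 CPM at 4 weeks. The list and its sum include Cd48, which the sort selects against, at a mean of 4.98 CPM at P5 and 5.10 CPM at 4 weeks.

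Of the 8 regulators, 7 had enough reads to be tested, and 1 of these 7 was higher and 0 were lower at P5. A single call among 7 genes is close to the 16.5% over all genes. The median log2 fold change of the 7 genes was 0.11, against -0.0042 over all tested genes. The called gene was Gfi1, and Ccng2 had the smallest p-value among the other 6.

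**Figure D1:**
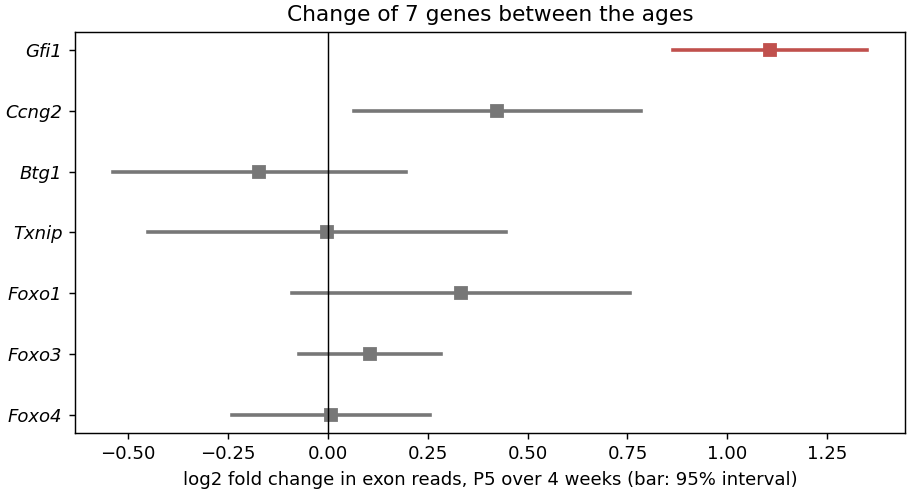
log2 fold change of exon reads, P5 over 4 weeks, for the 7 tested genes, with 95% intervals from edgeR. The square of Gfi1, in red, lies at 1.11, and the interval of Ccng2 also clears 0 before adjustment.

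The genes stood at very different levels. Compared per kilobase of exon, so that levels of different genes can be set side by side, Txnip had a median of 398 CPM per kb over the 8 libraries and a range of 343 to 727. Foxo3 followed at a median of 80.0 CPM per kb, with a range of 69.6 to 88.4 that touched neither neighbour in the order. Gfi1 at 35.1, Btg1 at 33.3 and Ccng2 at 23.4 CPM per kb had ranges that overlapped each other. Foxo1 at 12.1 and Foxo4 at 11.8 CPM per kb also overlapped, and the range of Foxo1 reached that of Ccng2. Klf15 was at a median of 0. The order of Gfi1 and Btg1 depended on age: at P5 Gfi1 averaged 48.1 ± 4.22 and Btg1 33.1 ± 10.1 CPM per kb, and at 4 weeks Gfi1 averaged 22.3 ± 3.67 and Btg1 37.2 ± 5.22 CPM per kb (SD, n = 4 each).

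**Figure D2:**
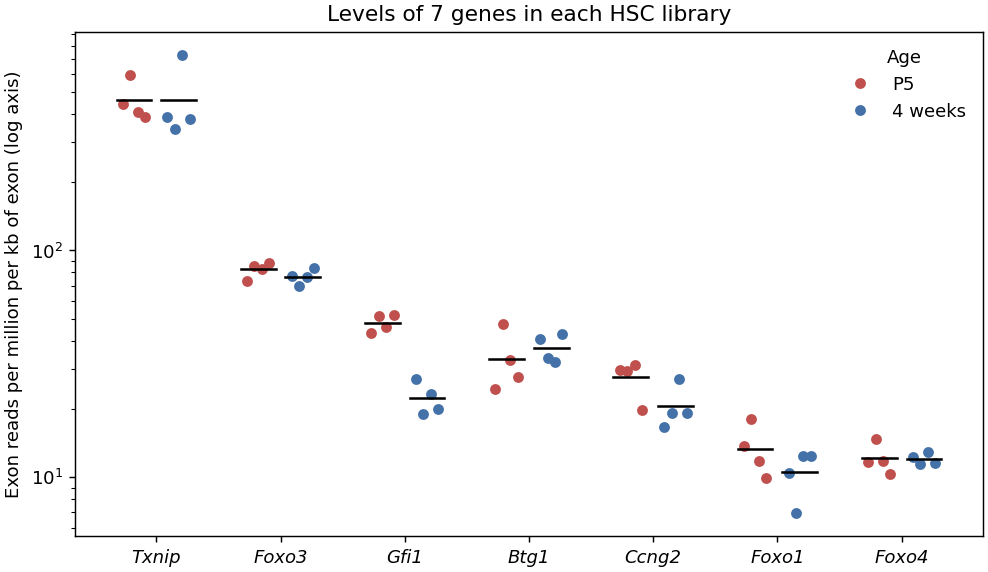
Exon CPM per kb of exon in each library (log axis) for 7 genes ordered by median, P5 in red and 4 weeks in blue, with black bars for the means. Txnip lies highest, from 343 to 727, and Gfi1 is the gene whose ages do not overlap; Klf15, with 0 to 1 exon reads per library, is not drawn.

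Foxo3 carried most of the FOXO message at both ages. Foxo3, on chromosome 10 at 42181845 to 42276695 (positions here are RefSeq GRCm38.p6, the assembly of mm10), encodes the FOXO factor whose loss in mice depletes the HSC pool. It stood at 501, 582, 568 and 605 CPM in the P5 libraries and at 526, 476, 521 and 574 CPM in the 4-week libraries. The ages overlapped, and the fold of 1.08 had a 95% interval of 0.952 to 1.22 (log2 0.11, SE 0.0820, adjusted p = 0.427 in edgeR's quasi-likelihood test). Its spread was the lowest of the 7 genes at P5, with a coefficient of variation of 7.87% at P5 and 7.64% at 4 weeks.

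Foxo1, on chromosome 3 at 52268337 to 52350109, encodes the FOXO factor that is best known in lymphocytes and in insulin-responsive tissues. It had 76.1, 99.9, 65.3 and 55.0 CPM at P5 and 57.8, 38.6, 69.2 and 69.1 CPM at 4 weeks. P5 replicate 2 was the highest library and 4-week replicate 2 the lowest, and the other libraries were mixed. The fold of 1.26 had a wide interval of 0.940 to 1.69 (adjusted p = 0.279, edgeR). In the GENCODE vM21 annotation its span is shared with other gene models, whose reads cannot be told from intron reads of Foxo1.

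Foxo4, the X-linked FOXO gene, on chromosome X at 101254261 to 101260873, had 59.0, 74.0, 59.5 and 52.0 CPM at P5 and 61.9, 57.7, 65.1 and 58.3 CPM at 4 weeks. The P5 values surrounded the 4-week values, with a fold of 1.01 and an interval of 0.847 to 1.19 (adjusted p = 0.975, edgeR). The intervals of Foxo3 and Foxo4 were narrow beside that of Foxo1.

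Within each library the balance of the 3 FOXO genes was tested too. Foxo3 made up 74.3%, 72.3%, 77.9% and 81.4% of the FOXO exon reads per kb in the P5 libraries and 77.2%, 79.1%, 75.0% and 77.7% in the 4-week libraries. The mean share of Foxo3 was 76.4% ± 4.03 in P5 libraries and 77.2% ± 1.70 in 4-week libraries (SD, n = 4 each, two-sided exact permutation p = 0.714, adjusted p = 0.714 over the 3 shares). Foxo1 took 12.3% ± 2.77 at P5 and 10.5% ± 1.91 at 4 weeks (exact permutation p = 0.343, adjusted p = 0.514), and Foxo4 took 11.2% ± 1.28 at P5 and 12.2% ± 1.03 at 4 weeks (exact permutation p = 0.286, adjusted p = 0.514). The smallest p that 70 splits of 4 against 4 allow is 0.0286.

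**Figure D3:**
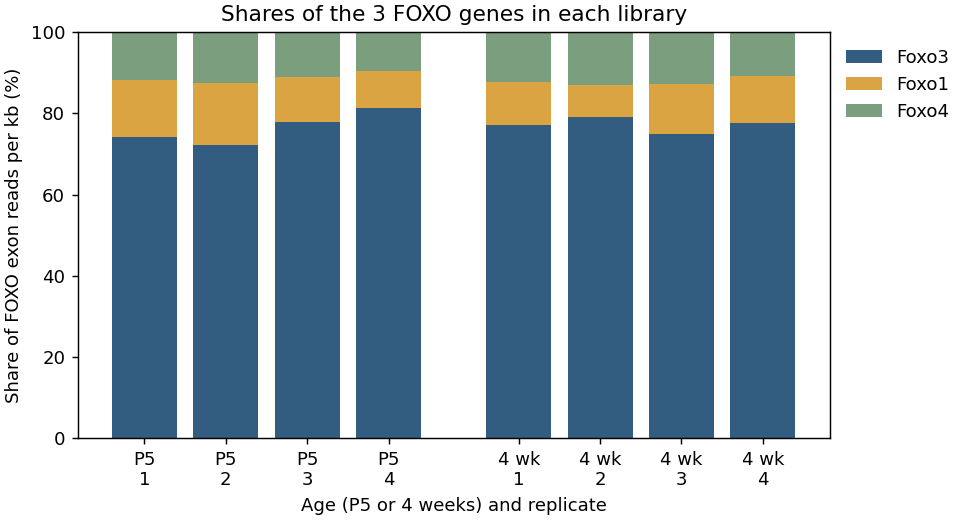
Share of the summed exon reads per kb of Foxo1, Foxo3 and Foxo4 held by each gene in each library, P5 libraries left and 4-week libraries right. Foxo3 holds between 72.3% and 81.4% of every column.

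Genes that feed into FOXO were called in both directions. The list holds kinases, phosphatases and receptors, and also genes of other kinds such as Crebbp, Mdm2, Sirt1 and Xpo1. Of 40 genes in this list 39 were tested, and 3 were higher and 4 were lower at P5. The median log2 fold change of the tested genes was 0.04. The shares over all tested genes were 7.99% higher and 8.55% lower, and the counts of the list lie near them. Prkaa2, a catalytic subunit of the energy sensor AMPK, was 3.30-fold lower, at 6.97 ± 1.29 CPM at P5 against 23.0 ± 0.994 CPM at 4 weeks (SD, n = 4 each, adjusted p = 1.79e-05, edgeR). Pik3cd, the leukocyte PI3K catalytic subunit, was 1.67-fold lower at P5 (264 ± 31.7 CPM at P5 against 440 ± 29.7 CPM at 4 weeks, adjusted p = 0.000105). Akt2, an AKT kinase, was 1.34-fold lower at P5 (102 ± 6.92 CPM at P5 against 137 ± 11.2 CPM at 4 weeks, adjusted p = 0.00378). Akt1, the kinase in the same step, had 289 ± 24.6 CPM at P5 and 272 ± 22.2 CPM at 4 weeks (adjusted p = 0.543). The higher genes were the insulin receptor Insr, the kinase Sgk1 and the stress kinase Mapk8. Insr lost its call in 5 of the 8 fits that leave out 1 library (adjusted p up to 0.0808), Sgk1 in 2 (up to 0.0637) and Mapk8 without 4-week replicate 4 (0.0528). With only the libraries that had Y-linked reads, Akt2 had an adjusted p of 0.0540, Insr of 0.0691 and Mapk8 of 0.123.

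Known FOXO target genes changed in both directions. Of 46 genes in the list 41 were tested, 8 were higher and 6 were lower at P5, where 7.99% and 8.55% of all tested genes were, and the median log2 fold change was -0.12. The trafficking genes Klf2 and S1pr1, known as FOXO1 targets in T cells, were both higher at P5. The list also holds Il7r and Ccr7, which had at most 0.155 and 0.846 CPM in any library and were not tested. Klf2 ranged from 14.4 to 64.7 CPM at P5 and from 8.73 to 11.1 CPM at 4 weeks. Its log2 fold change was 1.79, and 1.26 without P5 replicate 2. S1pr1, the sphingosine phosphate receptor, was 2.02-fold higher (61.3 ± 13.6 CPM at P5 against 30.3 ± 4.38 CPM at 4 weeks, SD, n = 4 each, adjusted p = 0.000767, edgeR). Sesn1, a sestrin that restrains growth signalling, was 1.84-fold higher (353 ± 44.2 CPM at P5 against 192 ± 24.3 CPM at 4 weeks, adjusted p = 9.01e-05), while its relative Sesn2 was 1.58-fold lower at P5 (adjusted p = 0.0462). Ccnd1, a D-type cyclin that FOXO factors are known to repress, was 2.13-fold higher (83.9 ± 20.0 CPM at P5 against 39.5 ± 5.33 CPM at 4 weeks, adjusted p = 0.000355).

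Of 4 CDK inhibitor genes in this list, 1 was higher, 1 was lower and 2 were not called. The shares over all tested genes were 7.99% higher and 8.55% lower. Cdkn1a, which encodes p21, was 2.94-fold higher at P5 at a low level (9.00 ± 1.50 CPM at P5 against 3.08 ± 1.23 CPM at 4 weeks, adjusted p = 0.00398, edgeR), and it was not called with uniquely mapped exon reads (adjusted p = 0.0782). Cdkn1b, which encodes p27, was 1.36-fold lower (56.3 ± 5.93 CPM at P5 against 76.5 ± 7.91 CPM at 4 weeks, adjusted p = 0.0134). Cdkn1c, which encodes p57, had 41.5 ± 4.95 CPM at P5 and 30.9 ± 6.19 CPM at 4 weeks (adjusted p = 0.0740), and Cdkn2d, which encodes p19, had 17.8 ± 2.94 CPM at P5 and 15.3 ± 1.51 CPM at 4 weeks (adjusted p = 0.409). Tnfsf10, the death ligand TRAIL, was 2.88-fold lower at P5, with 62.2 to 70.9 CPM at P5 against 183 to 199 CPM at 4 weeks (adjusted p = 4.99e-08). Bcl6, Trib2 and Cited2 were also lower at P5, and Insr and Mxi1 higher. Insr is counted in this list and among the inputs. In the fits that leave out 1 library, Sesn2 and Mxi1 lost their calls in 6 of 8 (adjusted p up to 0.151 and 0.110), and Cdkn1b in 2 (up to 0.0520). With Y-linked reads as a covariate Cited2 lost its call (adjusted p = 0.0839), as did Insr (0.0601), Mxi1 (0.0521), Cdkn1b (0.0700) and Sesn2 (0.277).

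**Figure D4:**
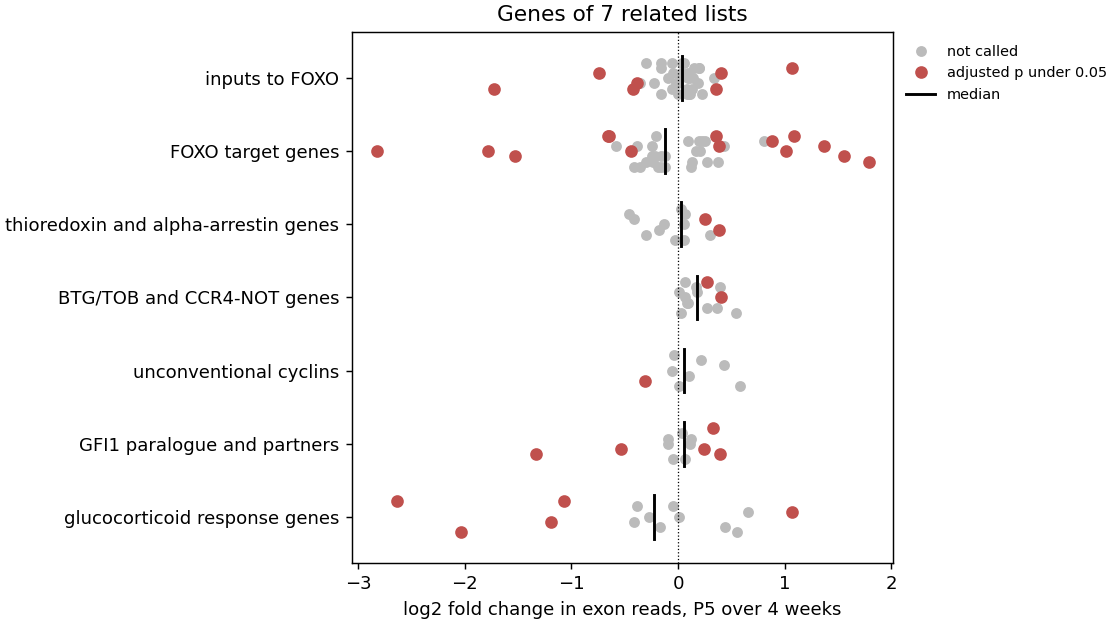
log2 fold change of exon reads, P5 over 4 weeks, for every tested gene of 7 lists of related genes; red points are genes with an adjusted p under 0.05, grey points the rest, and black ticks the list medians. Called genes lie on both sides of 0 among the inputs to FOXO, from -1.72 to 1.07, and among the FOXO targets, from -2.83 to 1.79.

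Among the FOXO-responsive genes, Txnip had the most reads. Txnip encodes the thioredoxin-interacting protein, an alpha-arrestin that binds thioredoxin and limits glucose uptake. Btg1 encodes an antiproliferative protein that brings the CCR4-NOT deadenylase to mRNAs, and Ccng2 encodes cyclin G2, an unconventional cyclin linked to arrest. The forkhead element GTAAACA was searched on both strands in RefSeq promoter windows (GRCm38.p6) of 250 bases before to 50 after the start site, which were on hand for 7 of the 8 genes. Of these 7 genes, Txnip and Btg1 held it, as did 3.65% of 32851 promoter windows. Txnip also held a match to the carbohydrate response element, searched on both strands as a pair of CACGNG half-sites 5 bases apart, which 16 windows held (0.0487%). A match describes letters and does not show that a factor binds there. The bases upstream of the start site follow for these genes, because they are the FOXO-responsive genes with a match, and for Gfi1, the gene that changed. Capitals mark the forkhead element, first base at -121 in Txnip and at -204 on the opposite strand in Btg1, and the carbohydrate response element of Txnip, first base at -85. Neither of the 2 windows of Gfi1 held either element, and the outer one is shown.
Txnip, chr3:96557707-96557956, + strand: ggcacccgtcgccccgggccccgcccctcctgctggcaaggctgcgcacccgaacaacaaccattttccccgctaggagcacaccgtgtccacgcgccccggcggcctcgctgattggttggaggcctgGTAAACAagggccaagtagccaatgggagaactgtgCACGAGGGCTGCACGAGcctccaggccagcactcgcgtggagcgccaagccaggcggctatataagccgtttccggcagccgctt
Btg1, chr10:96616751-96617000, + strand: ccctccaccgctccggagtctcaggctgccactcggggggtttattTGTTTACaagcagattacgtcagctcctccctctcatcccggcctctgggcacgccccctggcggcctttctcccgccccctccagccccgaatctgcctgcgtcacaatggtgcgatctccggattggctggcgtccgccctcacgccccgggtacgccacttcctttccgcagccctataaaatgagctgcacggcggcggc
Gfi1, chr5:107725806-107726055, - strand: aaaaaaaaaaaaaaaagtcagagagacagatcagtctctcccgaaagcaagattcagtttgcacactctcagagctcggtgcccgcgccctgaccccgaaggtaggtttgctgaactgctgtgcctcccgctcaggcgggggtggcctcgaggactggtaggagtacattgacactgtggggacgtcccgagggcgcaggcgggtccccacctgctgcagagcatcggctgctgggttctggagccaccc

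By exon reads no difference in Txnip passed the test. It had 1238, 1671, 1143 and 1088 CPM at P5 and 1083, 961, 2036 and 1068 CPM at 4 weeks. Replicate 3 at 4 weeks was the highest of all 8 libraries and replicate 2 at P5 the next, and the other 6 lay between 961 and 1238 CPM. The fold was 0.999 with an interval of 0.732 to 1.36 (adjusted p = 0.997, edgeR). This interval is before adjustment, so at this spread a call needed a change larger than its bounds.

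Intron reads of Txnip, on chromosome 3 at 96557957 to 96561857, were lower at P5. There were 110, 151, 130 and 127 intron reads in the P5 libraries and 367, 166, 442 and 336 in the 4-week libraries, so every P5 library lay below every 4-week library. As a level this was 10.1 ± 1.20 CPM of intron reads at P5 against 24.4 ± 9.74 CPM at 4 weeks (SD, n = 4 each), 2.41-fold lower at P5 (log2 -1.27, SE 0.263, adjusted p = 0.00643 over 13180 genes, edgeR). Each intron read was matched by 82.5, 71.2, 54.4 and 60.8 exon reads at P5 and by 18.7, 33.6, 27.4 and 22.9 exon reads at 4 weeks. In a model of both kinds of reads, chosen after seeing the data, the exon to intron ratio was 2.38-fold higher at P5 (log2 1.25, SE 0.145, adjusted p = 0.000104, edgeR). Intron reads can come from RNA that is not yet spliced, and exon reads from mature mRNA. Over all genes, intron reads took 60.1% to 68.7% of gene reads in these libraries, and their source was not tested.

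The mapping of Txnip reads limits these values. The whole gene lies within Gm15441, an antisense gene on chromosome 3 at 96555765 to 96566801 in GENCODE vM21 (GRCm38), and the library kit does not mark strand, so reads of the 2 genes cannot be told apart. In every library the exon reads listed as unique equalled the unique exon-exon junction reads, 1425 to 2183 at P5 and 1169 to 2340 at 4 weeks, and 0 intron reads were listed as unique. Unique reads made up 19.4% to 20.3% of Txnip exon reads at P5 and 18.7% to 21.0% at 4 weeks. Reads counted for Gm15441 itself were 88, 119, 111 and 60 at P5 and 84, 95, 145 and 117 at 4 weeks, and the part of that gene in the intron difference was not tested.

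Btg1, on chromosome 10 at 96617001 to 96622813, had 123, 237, 165 and 139 CPM at P5 and 204, 168, 161 and 214 CPM at 4 weeks. P5 replicate 2 was the highest library and the other 3 P5 libraries lay at or below the middle of the 4-week range. The fold was 0.888 with an interval of 0.689 to 1.14 (log2 -0.17, adjusted p = 0.545, edgeR). The call turned on that library: without P5 replicate 2 the log2 fold change was -0.39 (adjusted p = 0.0441, edgeR). In that fit P5 replicate 4 was the only P5 library with Y-linked reads. With all libraries and Y-linked reads as a covariate, the log2 fold change of Btg1 was 0.0073 (adjusted p = 0.989).

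Ccng2, on chromosome 5 at 93267573 to 93276231, had 74.3, 73.2, 77.9 and 49.4 CPM at P5 and 41.6, 47.7, 67.5 and 48.1 CPM at 4 weeks. At P5, 3 libraries lay above all 4-week libraries and replicate 4 lay among the 4-week values. The fold of 1.34 had an interval of 1.05 to 1.72 (log2 0.42, SE 0.166, unadjusted p = 0.0240 in edgeR's quasi-likelihood test), and it did not pass after adjustment (adjusted p = 0.104). It passed without P5 replicate 4 (log2 0.55, adjusted p = 0.0289), without 4-week replicate 3 (log2 0.58, adjusted p = 0.0276) and in reads across exon junctions (log2 0.76, adjusted p = 0.0452, where 9.38% of genes were called). It was smaller with Y-linked reads as a covariate (log2 0.26, adjusted p = 0.476).

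In the families around these 3 genes, the counts called lie near the 16.5% over all tested genes. Of 15 thioredoxin and alpha-arrestin genes 13 were tested, 2 were higher and 0 lower at P5, with a median log2 fold change of 0.03. These were the thioredoxin reductase Txnrd1, 1.19-fold higher (adjusted p = 0.0430, edgeR), and the alpha-arrestin Arrdc3, 1.30-fold higher (adjusted p = 0.0479). Txn1, the thioredoxin that TXNIP binds, had 122 ± 20.6 CPM at P5 and 99.2 ± 17.0 CPM at 4 weeks (adjusted p = 0.151). Of 15 BTG/TOB and CCR4-NOT genes other than Btg1, 14 were tested, 2 were higher and 0 lower. All 14 had a positive log2 fold change, from 0.0045 to 0.55 with a median of 0.17. Btg1, left out of this list, was at -0.17, and the median over all tested genes was -0.0042. The methyltransferase Prmt1, which binds BTG1, was 1.33-fold higher (176 to 209 CPM at P5 against 122 to 162 CPM at 4 weeks, adjusted p = 0.0112), and the deadenylase Cnot6l was 1.21-fold higher (adjusted p = 0.0390). Btg2, the paralogue of Btg1, ranged from 58.5 to 205 CPM at P5 and from 55.9 to 85.6 CPM at 4 weeks (adjusted p = 0.232). Of 8 unconventional cyclins 0 were higher and 1 was lower, Ccng1, the paralogue of Ccng2 and a p53 target, at 1.24-fold lower at P5 (75.6 ± 8.64 CPM at P5 against 93.9 ± 4.16 CPM at 4 weeks, adjusted p = 0.0417). Of the genes named here, Prmt1 kept its call without each library in turn but not with Y-linked reads as a covariate (adjusted p = 0.0788), while Txnrd1, Arrdc3, Cnot6l and Ccng1 each lost theirs in 5 to 7 of the 8 such fits, with adjusted p up to 0.131, 0.146, 0.115 and 0.113.

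Gfi1 encodes a zinc finger repressor that recruits histone demethylase and deacetylase complexes. The gene, on chromosome 5 at 107716655 to 107725805, had 159, 189, 169 and 190 CPM at P5 and 99.9, 69.8, 85.3 and 73.7 CPM at 4 weeks. Every P5 library lay above every 4-week library, a separation that 21.2% of tested genes showed in one direction or the other. The means were 177 ± 15.5 CPM at P5 and 82.2 ± 13.5 CPM at 4 weeks (SD, n = 4 each), which is 2.15-fold higher at P5 with an interval of 1.82 to 2.55 (log2 1.11, SE 0.112, adjusted p = 1.86e-05, edgeR). Among the 6 libraries with Y-linked reads alone, the log2 fold change was 1.21 (adjusted p = 0.000278, edgeR). Among all 12235 tested genes, 323 were called and at least 2-fold higher at P5. In the authors' deposited table Gfi1 had a p-value of 8.88e-16 and a corrected p-value of 3.10e-13, and the other 7 genes had corrected values of 0.337 or above.

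Reads across Gfi1 exon junctions numbered 145, 169, 93 and 177 at P5 and 54, 63, 33 and 80 at 4 weeks, again without overlap (log2 1.26, adjusted p = 0.000160, edgeR). Gfi1 intron reads numbered 114, 181, 150 and 206 at P5 and 189, 94, 126 and 109 at 4 weeks and overlapped (log2 0.38, adjusted p = 0.287). Exon reads per intron read were 10.2, 6.73, 6.99 and 6.55 at P5 and 3.34, 4.31, 4.02 and 4.88 at 4 weeks, a ratio 1.63-fold higher at P5 (log2 0.70, SE 0.150, adjusted p = 0.00909, edgeR). Without P5 replicate 1, the library with fewer intron reads, the log2 difference was 0.66 (adjusted p = 0.0165), and with Y-linked reads as a covariate it was 0.64 (adjusted p = 0.0694).

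The first 5' part of Gfi1 overlaps A430072P03Rik, a transcript of the opposite strand on chromosome 5 at 107725157 to 107728801 (GENCODE vM21). Reads counted for A430072P03Rik itself were 63, 53, 50 and 56 at P5 and 37, 27, 12 and 9 at 4 weeks, higher at P5 without overlap. Gfi1 had 1048 to 1350 exon reads at P5 and 405 to 632 at 4 weeks. The library kit does not mark strand, so reads of both genes in the shared part cannot be told apart. The part of A430072P03Rik in the Gfi1 difference was not tested. The 2 genes most like Gfi1 across the 8 libraries, among 8572 named genes, were Crlf3 (r = 0.989 of log2 CPM, 1.26-fold higher at P5) and the B-cell and myeloid transcription factor Pou2f2 (r = 0.988, 2.63-fold higher at P5). The 8 points of each r fall into the 2 ages and share their libraries.

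The paralogue Gfi1b moved in the opposite direction. Gfi1b, known in erythroid and megakaryocytic cells and as a second restraint on HSC expansion, had 12.1 to 15.5 CPM at P5 and 29.5 to 43.2 CPM at 4 weeks, which is 2.52-fold lower at P5 (13.7 ± 1.63 CPM at P5 against 34.7 ± 6.39 CPM at 4 weeks, SD, n = 4 each, adjusted p = 8.94e-05, edgeR). All 12 genes in the list of this paralogue and the corepressor partners were tested, with a median log2 fold change of 0.05. Of these, 3 were higher and 2 lower at P5, where 7.99% and 8.55% of all tested genes were. Kdm1a, the demethylase LSD1, was 1.25-fold higher (124 ± 8.27 CPM at P5 against 98.7 ± 10.2 CPM at 4 weeks, adjusted p = 0.0291), Hdac1 was 1.18-fold higher (adjusted p = 0.0376) and Rcor2 was 1.32-fold higher (adjusted p = 0.0390). Rcor3, a CoREST family member, was 1.45-fold lower at P5 (42.5 ± 2.76 CPM at P5 against 61.5 ± 2.68 CPM at 4 weeks, adjusted p = 0.00242). The calls of Gfi1b and Rcor3 held without each library in turn, and those of Kdm1a, Hdac1 and Rcor2 were lost in 5 to 7 of the 8 such fits, with adjusted p up to 0.0957, 0.112 and 0.118.

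**Figure D5:**
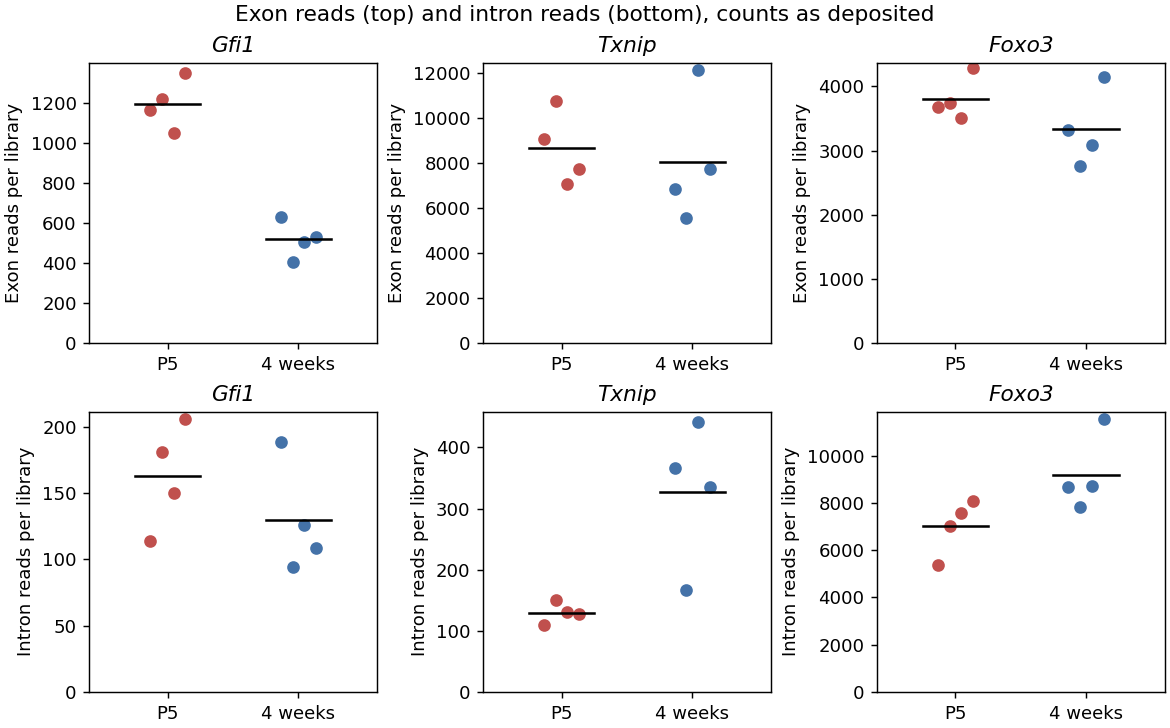
Exon reads (top) and intron reads (bottom) per library as deposited for Gfi1, Txnip and Foxo3, P5 left and 4 weeks right, black bars for means. Gfi1 separates the ages by exon reads, with 1048 to 1350 at P5 and 405 to 632 at 4 weeks, and Txnip by intron reads, with 110 to 151 at P5 and 166 to 442 at 4 weeks.

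Gfi1 is also expressed in myeloid progenitors, and markers of other blood cells differed between the ages. Over all tested genes, 7.99% were called higher and 8.55% lower at P5. Of 13 granulocyte and monocyte markers 7 were tested, 4 were higher (Mpo, Ltf, Csf1r and Itgam) and 1 was lower (S100a8) at P5. Their summed level was 243 to 478 CPM at P5 and 190 to 224 CPM at 4 weeks. The levels of its members ranged widely. Ctsg had 0 reads in all libraries, Elane had 0 at P5 and up to 1.01 CPM at 4 weeks, and Mpo averaged 5.62 CPM at P5 and 1.46 CPM at 4 weeks. The granule protease gene Prtn3 averaged 25.8 CPM at P5 and 25.5 CPM at 4 weeks, and the lysozyme gene Lyz2 averaged 172 CPM at P5 and 158 CPM at 4 weeks. Itgam, an integrin subunit of myeloid cells, was 4.53-fold higher (59.9 ± 15.7 CPM at P5 against 13.1 ± 3.73 CPM at 4 weeks, SD, n = 4 each, adjusted p = 1.44e-05, edgeR). Csf1r reached 158 CPM in P5 replicate 2, against 3.53 CPM in the lowest P5 library and at most 3.95 CPM at 4 weeks. Without P5 replicate 2 the log2 fold change of Gfi1 was 1.07 (adjusted p = 3.96e-05, edgeR). Erythroid markers summed to 643 to 997 CPM at P5 and 172 to 206 CPM at 4 weeks, with Hbb-bt the called gene of 4 tested and Alas2 at 0. Of the B lymphoid, T lymphoid, and stromal and endothelial lists, 1 gene each was called, Cd79b, Cd4 and Cdh5, all higher at P5. B lymphoid markers summed to 34.1 to 51.7 CPM at P5 and 20.9 to 26.1 CPM at 4 weeks with Pax5 and Ms4a1 at 0, and T lymphoid markers to 24.7 to 36.4 CPM at P5 and 15.1 to 24.0 CPM at 4 weeks with Cd3e, Cd3g and Bcl11b at 0. Stromal and endothelial markers summed to 170 to 230 CPM at P5 and 140 to 201 CPM at 4 weeks. Megakaryocyte markers summed to 293 to 404 CPM at P5 and 319 to 419 CPM at 4 weeks, with Gp9 higher and Itga2b lower at P5. Their part in the result was not tested. In such pooled cells, fewer cells of a type and less RNA per cell cannot be told apart.

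Foxo3 also differed in the ratio of its reads. Its intron reads, which outnumbered its exon reads in every library, were 5391, 7014, 7578 and 8066 at P5 and 8687, 7828, 8720 and 11561 at 4 weeks. By level they were 1.25-fold lower at P5 (on average 542 CPM of intron reads at P5 against 677 CPM at 4 weeks, n = 4 each, log2 -0.32, SE 0.0808, adjusted p = 0.0176, edgeR). With uniquely mapped intron reads the log2 fold change was -0.36 (adjusted p = 0.0134, where 18.3% of genes were called). There were 0.682, 0.534, 0.464 and 0.532 exon reads per intron read at P5 and 0.383, 0.353, 0.355 and 0.358 at 4 weeks, with no overlap. This ratio was 1.34-fold higher at P5 (log2 0.42, SE 0.0925, adjusted p = 0.0105), it was as large without P5 replicate 1 (log2 0.42, adjusted p = 0.00725), and it missed the threshold without 4-week replicate 3 (log2 0.37, adjusted p = 0.0560).

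In all, intron reads called 2 of 7 genes, Txnip and Foxo3, both lower at P5, where 17.9% of all genes were called and 8.86% were called lower. The exon to intron ratio called 3 of 7, Txnip, Gfi1 and Foxo3, all higher at P5, where 6.38% of 11399 genes were called. For Foxo1, Foxo4, Btg1 and Ccng2 the log2 differences in the ratio were 0.07, -0.24, 0.41 and -0.27, with adjusted p of 0.880, 0.563, 0.342 and 0.477 in edgeR. The Txnip ratio without P5 replicate 1 was log2 1.26 (adjusted p = 0.000144).

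Klf15 had almost no exon reads at either age. Klf15, a Krüppel-like factor that glucocorticoids induce in muscle and liver, on chromosome 6 at 90461043 to 90491803, had 0 exon reads at P5 of 27188075 and 2 at 4 weeks of 25266599, 1 each in replicates 1 and 4. A count of 0 allows up to 3 reads, which over the P5 group is 0.111 CPM and covers counting error only. The 2 reads at 4 weeks stood for 0.158 CPM in replicate 1 and 0.139 CPM in replicate 4. Intron reads appeared in P5 replicate 2, with 8, and in 4-week replicates 2 and 3, with 4 and 1.

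In a list of other glucocorticoid-related genes, 4 were lower at P5. Besides genes known to respond to glucocorticoids, the list holds the receptors Nr3c1 and Nr3c2 and the gene Fkbp4. Of its 16 genes 14 were tested, with a median log2 fold change of -0.22. Among these, 1 was higher and 4 were lower, where 7.99% and 8.55% of all tested genes were. Klf9, a related Krüppel-like factor, was 4.09-fold lower, with 7.76 to 13.7 CPM at P5 against 33.9 to 49.5 CPM at 4 weeks (adjusted p = 1.11e-05, edgeR). Fkbp5, a co-chaperone of the glucocorticoid receptor, was 2.10-fold lower (63.5 to 84.3 CPM at P5 against 125 to 170 CPM at 4 weeks, adjusted p = 4.92e-05). Zbtb16, the transcription factor PLZF, was 6.22-fold lower, with 4.36 to 12.6 CPM at P5 against 15.5 to 68.1 CPM at 4 weeks (adjusted p = 0.000850). The mineralocorticoid receptor Nr3c2 was 2.29-fold lower (5.47 ± 2.30 CPM at P5 against 12.5 ± 2.97 CPM at 4 weeks, adjusted p = 0.0143, 0.0569 without 4-week replicate 1 and 0.138 with Y-linked reads as a covariate). Sgk1, the kinase also counted among the inputs to FOXO, was 2.10-fold higher (12.0 ± 3.84 CPM at P5 against 5.68 ± 0.994 CPM at 4 weeks, adjusted p = 0.0159). Among the genes not called, Tsc22d3, which encodes GILZ, had 122 ± 52.4 CPM at P5 and 159 ± 28.2 CPM at 4 weeks (adjusted p = 0.286), the clock gene Per1 had 145 ± 72.5 CPM at P5 and 144 ± 32.4 CPM at 4 weeks (adjusted p = 0.990), and the phosphatase gene Dusp1 had 175 ± 46.8 CPM at P5 and 212 ± 43.0 CPM at 4 weeks (adjusted p = 0.346). These 3 genes were picked for naming with their values known. The receptor itself, Nr3c1, had 141 ± 21.9 CPM at P5 and 158 ± 5.78 CPM at 4 weeks (adjusted p = 0.279).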

How the data were processed

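The values are raw read counts per gene that the authors deposited, with exon, intron and junction reads listed apart. Reads were placed on mm10, per the submitters' processing notes, with aligner, counter and annotation not given in the sources used here. Libraries were made from sorted cells with a Nextera XT kit, per the labels' protocols, without molecular identifiers. The authors also deposited a p-value and a corrected p-value per gene, quoted once. Numbered copies of a gene were summed, and 24 names turned into dates in the table of P5 replicate 4 were restored by row order.

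Total exon reads were tested with edgeR 4.0.16 (R 4.3.3, TMM scaling, filterByExpr, quasi-likelihood, age alone) over all 8 libraries, with Benjamini-Hochberg adjustment over 12235 genes. CPM values use the TMM library sizes. The ratio model fitted exon and intron reads together with a library term. FOXO shares were compared by exact permutation over all 70 splits, with Benjamini-Hochberg adjustment from scipy 1.17.1. On simulated data, 85.9% of 2-fold and 100% of 4-fold changes were recovered for P5 against 4 weeks over 12118 genes, and 4.21% of calls were false. There 99 genes were set to change 2-fold and 97 to change 4-fold, and the spread followed the trend with expression level. These rates do not cover genes with a spread above that trend, or the difference in sex between libraries.

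The 8 genes, the lists and the tests were chosen with earlier results of these data known. Genes named beyond the 8 were at most the 4 called genes with the smallest p-value per list, named partners, and the 2 genes most like each called gene. Other genes of a list, called or not, were named after their values were seen. Some called genes are not reported here by name. Alternatives were limma 3.58.1 voom, DESeq2 1.42.0, other filters, scalings, read classes, the replicate block and each library left out.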

Additional observations from a re-analysis of the deposited data

Results flagged for a closer look

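Of 34 groups of 4 libraries examined for a value far from the rest, 3 held one, and chance flags about 1 group in 20. Txnip at 4 weeks had a high library, replicate 3, whose gap to the next was 0.886 of the group's range. Ccng2 at P5 had a low library, replicate 4, with a gap of 0.836 of the range. The exon reads per intron read of Gfi1 at P5 had a high library, replicate 1, with a gap of 0.882 of the range. The critical value for 4 samples is 0.829.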

How the results depend on the processing

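Gfi1 remained higher at P5 and called under every alternative on exon or junction reads, with log2 fold changes of 1.05 to 1.26, and was not called on intron reads. The count of the 8 genes called higher ranged from 1 to 2 and the count called lower from 0 to 1 when each library was left out. It was 2 higher with junction reads, 0 higher and 2 lower with intron reads, and 0 higher and 1 lower with uniquely mapped intron reads. For genes near 0 the sign turned with the setting, with no call. Txnip was at 0.0482 with the replicate block, 0.00233 with DESeq2 size factors, 0.000969 with DESeq2, 0.0469 with limma-voom, 0.0317 with unique reads, 0.0527 with exon plus intron reads, 0.100 with Y-linked reads as a covariate or with only libraries that had them, 0.0433 with junction reads, and -0.154 to 0.307 without each library in turn. Foxo4 was at -0.00196 with the block, -0.00458 with limma-voom, -0.217 with junction reads and -0.0965 to 0.0780 without each library. Btg1 was at 0.00728 with the Y-linked covariate and 0.00707 with only libraries holding Y-linked reads, and Foxo1 at -0.0820 with junction reads. Foxo3 was at -0.209 with exon plus intron reads, and at -0.321 with intron reads and -0.361 with unique intron reads, both called. Without each library in turn, the log2 difference in the Foxo1 ratio ran from -0.162 to 0.184 and the difference in the Foxo3 share from -2.45 to 0.586 percentage points. The cause of these changes was not tested.

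The replicate numbers did not pair the libraries: deviations of same-numbered libraries correlated at -0.236 to -0.0309. With the block Gfi1 was still the only call among the 8 genes (log2 1.12, adjusted p = 0.00144), and over all genes 577 were higher and 723 lower, against 977 and 1046 without it. With Y-linked reads as a covariate 628 were higher and 608 lower, with junction reads 400 and 462, and at a log2 fold change of at least 1, 323 and 349. Of 34 called genes of the other lists, 16 kept their call under all settings on exon reads, 21 with the block and 19 with the Y-linked covariate. Depth limits Klf15, and the spread between libraries limits Foxo1, Btg1 and Txnip.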
